A study of Mus musculus with 16 samples.

Results

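The SLC25 family of mitochondrial carriers was examined in brown adipose tissue (BAT) of mice with or without Gdf15 in thermogenic adipocytes. Members were all gene symbols of the form Slc25a followed by a number in the GENCODE mouse M21 annotation, without pseudogenes, which left 47 of the 49066 symbols measured and set aside 1 pseudogene, Slc25a5-ps. The 47 carriers comprised 256 annotated transcripts, and the values of a gene are the sum over its transcripts in TPM, a measure of transcript abundance that already divides by transcript length and sums to 1000000 per library. Carriers named in other ways, such as the uncoupling protein Ucp1, are not in this count.

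SLC25 proteins sit in the inner mitochondrial membrane, with a few in the outer membrane or in peroxisomes, and each carries a small set of metabolites, nucleotides, cofactors or ions between the cytosol and the matrix. In brown adipocytes, whose mitochondria burn fatty acids to make heat through the related carrier UCP1, the family brings in acylcarnitines, phosphate, ADP, coenzyme A and NAD, and lets out citrate for lipid synthesis. The carriers share one fold, so the substrate has to be learned for each of them, and for several it is still unassigned.

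The samples were 16 BAT libraries, 4 for each genotype (WT or KO) in each sex. All mice were on the C57BL6/J background, carried homozygous floxed Gdf15 alleles, ate a high-fat diet with 60% of its energy as fat for 12 weeks and were 18 weeks old. KO mice also carried a Cre transgene driven by the Ucp1 promoter, which acts in brown and beige adipocytes and not in the other cells of the tissue, and WT mice had the floxed alleles without Cre. The labels number the replicates without naming animals, so p-values measure the spread between these samples. RNA was sequenced in bulk, so fewer cells of a type and less RNA per cell cannot be told apart.

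Gdf15 was measured at 0.368, 0.690, 1.55 and 3.81 TPM in male WT and at 0.0915, 0.0801, 0.255 and 0.272 TPM in male KO, with no overlap. The male difference was -1.38 on the log2(TPM + 0.5) scale used throughout, with an exact two-sided permutation p of 0.0286, the smallest that 4 against 4 allows, and it was -2.26 with a pseudocount of 0.1 and -0.98 with 1 at the same p. In females, Gdf15 was at 0.0622, 0.311, 0.170 and 0.290 TPM in WT, was listed at 0 in 3 KO libraries and was at 0.0794 TPM in female KO 3, above female WT 1 (exact permutation p = 0.0571).

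TPM keep no sequencing depth. Between 58140 and 65746 transcripts were above 0 per library, and RNA encoded by mitochondrial DNA made up 34.5% to 59.8% of TPM. In female WT 4, a single transcript without a symbol took 16.5% of the TPM. As TPM sum to a fixed total, this lowers the values of all other genes in that library, which enters all female and sex comparisons. Summed TPM of 9 brown adipocyte markers lay between 6012 and 12713, so the tissue label was met in all libraries. Library names carried 4 prefixes of unstated meaning (5, 8b, 9 and 10) that were spread unevenly over the groups. The sum of 12 skeletal muscle markers ranged from 2.52 to 5757 TPM and was over 1000 TPM in 6 libraries: male WT 1 and 2, male KO 1 and 3, female WT 2 and female KO 3. Within female KO, libraries 1 and 4 (prefixes 10 and 9) stood apart from 2 and 3, and female differences that rest on them are given with and without the pair.

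Brown fat expressed most of the family, and a few carriers made up most of its transcripts. Summed over all 47 carriers, TPM ranged from 2065 to 3382 per library, and the 10 highest carriers held 82.8% of the mean sum. In the mean over 16 libraries, 39 carriers were at 1 TPM or more. The other 8 were Slc25a13, Slc25a18, Slc25a43, Slc25a31, Slc25a2, Slc25a21, Slc25a41 and Slc25a54, whose means ran from 0.163 down to 0.00172 TPM. Slc25a13 is the aspartate/glutamate carrier of liver, and its paralog Slc25a12 was at 4.30 ± 3.79 TPM (SD, n = 16). The plot of carrier levels shows 38 of the 39 in order.

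**Figure D1:**
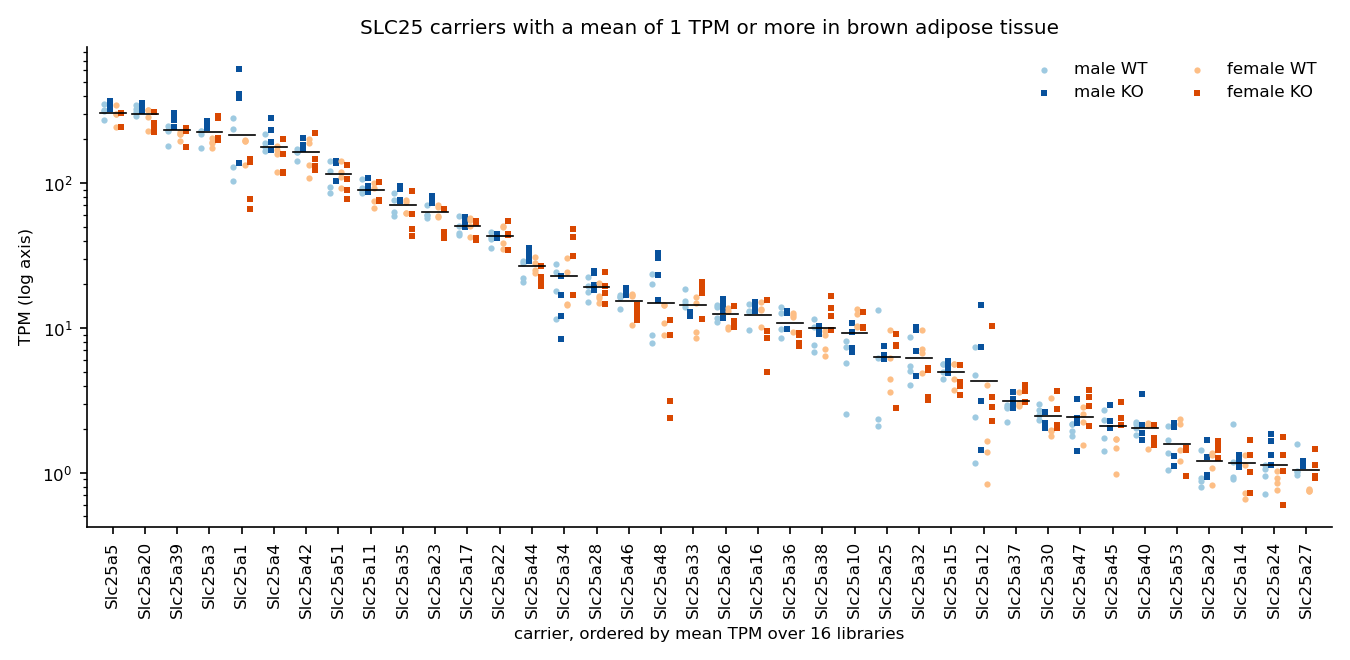
TPM of 38 of the 39 carriers with a mean of 1 TPM or more, on a log axis, ordered by the mean over 16 libraries (black line); each point is 1 library, coloured by group. Levels span from 306 TPM for Slc25a5 to 1.05 TPM for Slc25a27, and Slc25a1, Slc25a48 and Slc25a12 have the widest spreads relative to their level among the carriers shown.

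The abundant ADP/ATP carriers, which exchange matrix ATP for cytosolic ADP and also conduct protons, were Slc25a5 (ranked first) and Slc25a4 (ranked 7th). A further ADP/ATP carrier, Slc25a31, ranked 43rd with a mean of 0.0571 TPM. Slc25a5 was at 271, 318, 313 and 349.6 TPM in male WT, 323, 371, 365 and 356 in male KO, 346, 298, 301 and 245 in female WT and 243, 306, 243 and 245 in female KO. Female WT 4 and female KO 1, 3 and 4 lay between 243 and 245 TPM, below all male libraries, and the genotypes overlapped in both sexes. The value in female WT 4 is lowered by the transcript without a symbol in that library. Slc25a4, the isoform of heart and skeletal muscle, was at 177, 219, 166 and 189 TPM in male WT, 282, 192, 233 and 169 in male KO, 179, 169.5, 158 and 119 in female WT and 119, 159, 201 and 117 in female KO. Its 4 highest values were in male KO 1, male KO 3, male WT 2 and female KO 3, all among the 6 libraries rich in muscle markers.

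Slc25a20, the carnitine/acylcarnitine carrier that moves long-chain fatty acids into the matrix, ranked second at 291, 309.7, 345 and 326 TPM in male WT, 316, 356, 327 and 345 in male KO, 319, 285, 321 and 229 in female WT and 238, 309, 226 and 261 in female KO. It was below Slc25a5 in 11 of 16 libraries and above it in the others, so the order of neighbouring carriers in the list is not fixed across libraries. Slc25a39, a carrier of glutathione, was at 181, 247, 231 and 227 TPM in male WT, 244, 304, 273 and 277 in male KO, 219, 194, 219 and 224 in female WT and 239, 239, 177 and 229 in female KO. In males, its KO values lay in the upper part of the range, with 1 WT library inside the KO range.

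Slc25a3 carries the phosphate used for ATP synthesis and was at 176, 229.9, 216 and 228 TPM in male WT, 238, 269, 260.4 and 254 in male KO, 205, 189.6, 192 and 174 in female WT and 283, 198, 204 and 291 in female KO. Male KO lay above male WT without overlap, and in females KO 1 and KO 4 were far above the other 6 libraries. Slc25a3 has a pair of mutually exclusive coding exons, A in heart and skeletal muscle and B in most tissues. They are shown because they tell its transcripts apart, although exon A was also measured in libraries with few muscle markers. The exon sequences, from GENCODE M21 on GRCm38, chromosome 10, minus strand, are printed 5′ to 3′ with capitals at bases that differ or have no partner in a global alignment (80 identical bases of 126 aligned positions, 63.5%). Exon A spans chr10:91122207-91122331 and exon B chr10:91121922-91122043.
Slc25a3 exon A: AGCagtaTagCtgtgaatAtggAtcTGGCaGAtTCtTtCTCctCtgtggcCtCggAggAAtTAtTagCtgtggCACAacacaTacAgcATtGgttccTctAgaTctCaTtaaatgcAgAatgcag
Slc25a3 exon B: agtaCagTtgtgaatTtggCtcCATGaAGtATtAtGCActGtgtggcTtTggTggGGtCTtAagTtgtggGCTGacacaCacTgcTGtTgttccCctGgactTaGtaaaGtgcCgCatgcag

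Slc25a1, the citrate carrier that supplies acetyl-CoA for cytosolic fatty acid synthesis, was the most variable of the 10 highest carriers, at 104, 128, 280.4 and 237 TPM in male WT, 136, 614, 414 and 385 in male KO, 196, 197, 134 and 196 in female WT and 77.2, 147, 139 and 66.3 in female KO. Its highest library was 9.26 times its lowest. Among the other 9 of these carriers that ratio lay between 1.53 for Slc25a5 and 2.41 for Slc25a4. Slc25a42, which exchanges coenzyme A for adenine nucleotides, was at 141, 171, 163 and 164 TPM in male WT, 203, 171, 173 and 183 in male KO, 201, 108, 189 and 134 in female WT and 146, 221, 124 and 131 in female KO.

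Slc25a51, the NAD carrier, was at 85.7, 93.4, 121 and 142 TPM in male WT, 103, 143, 139.7 and 137 in male KO, 142, 92.4, 118 and 109 in female WT and 89.9, 107, 78.0 and 134 in female KO. Slc25a11, the oxoglutarate/malate carrier of the malate-aspartate shuttle, was at 85.8, 106, 88.4 and 92.7 TPM in male WT, 108, 94.1, 95.8 and 86.4 in male KO, 99.6, 75.7, 92.9 and 67.4 in female WT and 76.4, 102, 75.0 and 75.7 in female KO. Slc25a11 was above the next carrier, Slc25a35, in 16 of 16 libraries, although their ranges over all libraries overlapped. An exon of Slc25a11 shares 189 bases with Rnf167 on the opposite strand, and the strand setting of the quantification is not given in the sources used here.

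By role, the 9 adenine nucleotide and phosphate carriers held 30.7% of the family's mean TPM, and the 9 carriers of nucleotides and cofactors 26.1%. The 7 carriers of carnitine and basic amino acids held 12.8%, the 4 of citrate and other di- and tricarboxylates 12.4%, and the 4 of iron and glutathione 10.1%. The carnitine group includes Slc25a45, Slc25a47 and Slc25a48, placed there only as carrier-like, without one of these substrates assigned. The 6 carriers of aspartate, glutamate and other amino acids held 3.32%, led by the glutamate carrier Slc25a22 at 43.1 ± 5.55 TPM (SD, n = 16). The other 8, uncoupling protein-like, outer membrane or without an assigned substrate, held 4.55%, most of it Slc25a35 at 71.0 ± 15.01 TPM. The family sum was 2491 ± 263 TPM in male WT and 3043 ± 284 in male KO (SD, n = 4), and 2391 ± 270 in female WT and 2234 ± 245 in female KO. The highest male WT sum, 2697, lay just under the lowest male KO sum, 2702, and the female groups overlapped. As a share of the TPM of nuclear genes, the family was at 0.452% to 0.569% in male WT and 0.527% to 0.619% in male KO, with overlap.

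**Figure D2:**
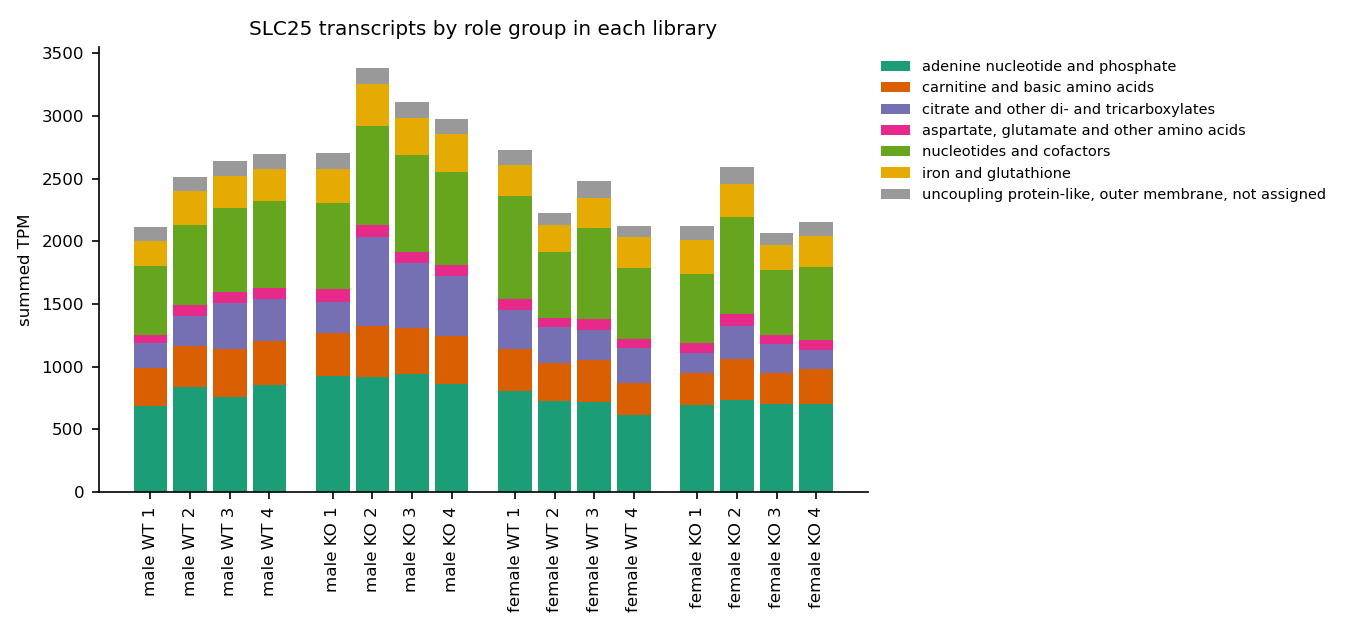
Summed TPM of the carriers in each of 7 role groups (stacked colours, from 0), 1 bar per library. The male KO bars reach from 2702 to 3382 TPM and the male WT bars from 2113 to 2697, and the citrate group is the band that differs most in height between male libraries.

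Part of the TPM of several carriers came from transcripts that encode no full protein. Of Slc25a42, 54.9% came from transcripts annotated as protein coding, and of Slc25a28, mitoferrin 2, 30.7%. Slc25a12, the aspartate/glutamate carrier of muscle and brain, had 63.6% of its TPM in 1 transcript annotated for nonsense-mediated decay and 12.6% in protein-coding ones. These shares are estimates of how reads are divided among overlapping transcripts.

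Muscle-type carriers ran with the skeletal muscle markers. The 6 libraries with over 1000 TPM of muscle markers held the 6 highest values of Slc25a12, from 4.06 to 14.5 TPM, against 0.835 to 3.35 TPM in the other 10. Slc25a12 was the single carrier of the 39 whose 6 muscle-rich libraries all lay above the rest. Slc25a4 made up 36.2% to 46.6% of the sum of Slc25a4 and Slc25a5 in those 6 libraries and 32.2% to 35.1% in the other 10. The Slc25a3 transcript with exon A made up 38.8% to 53.0% of the transcripts with either exon in the 6 libraries, and 9.40% to 35.4% in the others, lowest in female WT 4. These are descriptions over 16 libraries, and the muscle-rich libraries were split over all 4 groups. How far muscle RNA enters the carrier values of a library was not tested.

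**Figure D3:**
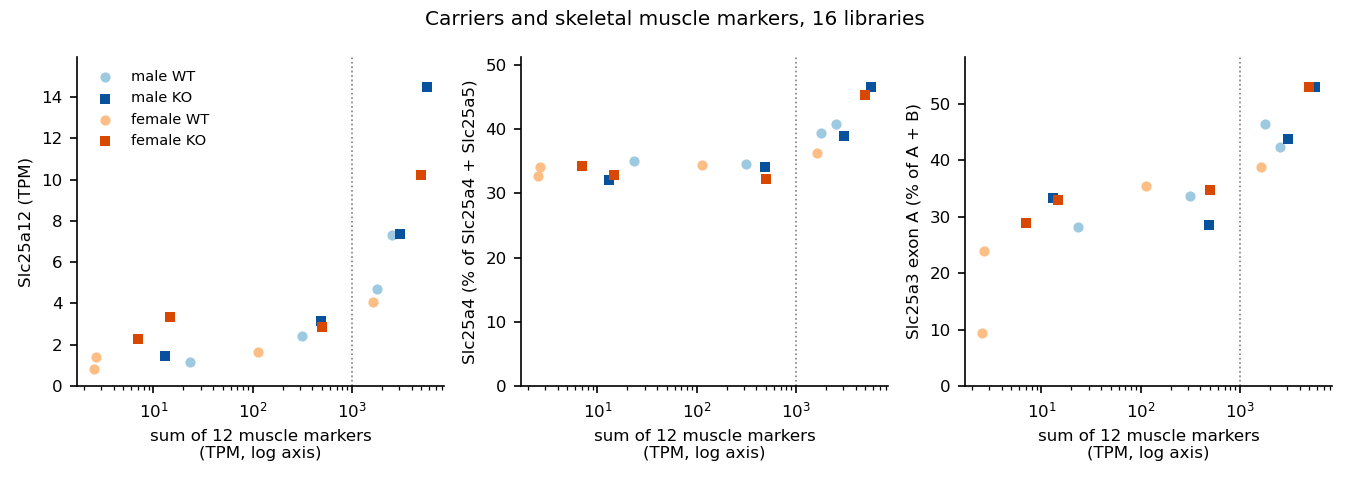
Slc25a12 TPM (left), Slc25a4 as a percentage of Slc25a4 plus Slc25a5 (middle) and the exon A transcript as a percentage of Slc25a3 transcripts with exon A or B (right), against the summed TPM of 12 skeletal muscle markers on a log axis, 1 point per library. Right of the dotted line at 1000 TPM lie the 6 libraries with the highest values in each panel.

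Loss of Gdf15 in male BAT was compared first. Of 39 carriers tested in males with limma and Benjamini-Hochberg adjustment over 12176 genes, 0 passed an adjusted p of 0.05, a level that 0.00821% of all genes reached. At an unadjusted p under 0.05 were 7 carriers, or 17.9% of those tested beside 18.7% of all genes. Of these, 6 were higher in KO, or 15.4% beside 17.7% of all genes, Slc25a24 among them with a male WT mean under 1 TPM. The other 1 was lower, or 2.56% beside 1.07%. The log2 difference was above 0 for 35 of 39 carriers and for 79.9% of all genes, with a median of 0.19 over carriers and 0.16 over all genes. Below 0 were 4 carriers, or 10.3%, beside 20.1% of all genes. After median-of-ratios scaling, which removes the shift common to all genes, 22 of 39 carriers were above 0, and their median was 0.02. At an unadjusted p under 0.05, that scaling left 0 carriers higher and 2 lower, Slc25a33 and Slc25a30, so none of the 6 higher ones stayed at this level. With nuclear genes rescaled to a fixed sum instead, 28 of 39 carriers were above 0, with a median of 0.09 beside 0.07 over all genes. There 3 of the 6 higher ones stayed at this level, Slc25a3, Slc25a24 and Slc25a39, and the same 2 carriers were lower.

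The male carriers with the smallest p belonged to several roles. Slc25a23, a calcium-regulated carrier that loads the matrix with ATP-Mg in exchange for phosphate, was at 57.7, 60.6, 60.4 and 70.3 TPM in male WT and 72.3, 81.5, 75.1 and 76.4 in male KO. All KO libraries were above all WT libraries, and the log2 difference was 0.29 ± 0.09 (SE), with a limma adjusted p of 0.205. Slc25a24, another carrier of ATP-Mg and phosphate, and Slc25a3 also separated the groups without overlap, with log2 differences of 0.44 ± 0.18 (adjusted p = 0.25) and 0.27 ± 0.11 (adjusted p = 0.245). Slc25a24 was low, at 0.711, 0.952, 1.07 and 1.12 TPM in male WT and 1.13, 1.65, 1.33 and 1.84 in male KO. Its male WT mean of 0.965 TPM was under the 1 TPM minimum for testing, which Slc25a24 met only through the KO libraries.

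Slc25a44, which takes branched-chain amino acids into brown fat mitochondria, was at 20.9, 22.3, 28.9 and 28.0 TPM in male WT and 28.8, 35.5, 31.9 and 32.4 in male KO. The groups met at 28.9 against 28.8 TPM, and the log2 difference was 0.37 ± 0.13 (limma adjusted p = 0.219). Slc25a39, described above, had a log2 difference of 0.31 ± 0.12 (adjusted p = 0.236). Slc25a33, a carrier of pyrimidine nucleotides, ran the other way at 13.9, 18.5, 15.4 and 14.7 TPM in male WT and 12.2, 12.5, 12.0 and 12.96 in male KO. Its KO libraries lay below all WT libraries, with a log2 difference of -0.31 ± 0.10 (adjusted p = 0.207).

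In all, 4 carriers had all 4 male KO libraries above all 4 WT libraries, or 10.3% of those tested beside 9.55% of all genes. They were Slc25a23, Slc25a3, Slc25a46 (an outer membrane protein of mitochondrial dynamics) and Slc25a24, whose male WT mean was under 1 TPM. For Slc25a33 alone all KO libraries lay below, beside 0.673% of all genes. Within prefix 9, the only prefix with both male genotypes, the KO minus WT difference over 2 WT and 3 KO libraries was 0.25 for Slc25a23, 0.23 for Slc25a3, 0.22 for Slc25a44 and -0.26 for Slc25a33. In place of 7 carriers at an unadjusted p under 0.05 there were 3 without male WT 1, 2 without male KO 2, 3 without male KO 3 and 3 without male KO 4. With prefix as a covariate 1 carrier was at that level, Slc25a1, which was not among the 7. Without the muscle-rich libraries 2 were, Slc25a39 of the 7 and Slc25a1.

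By role, values were higher in male KO for 6 of 6 tested adenine nucleotide and phosphate carriers, 6 of 6 of carnitine and basic amino acids, 3 of 3 of di- and tricarboxylates and 8 of 9 of nucleotides and cofactors. In females the same groups had 3 of 6, 3 of 6, 0 of 3 and 1 of 9 carriers above 0. For iron and glutathione the counts were 4 of 4 in males and 3 of 4 in females, and for amino acids 4 of 4 and 3 of 4. The uncoupling protein-like, outer membrane and unassigned carriers had 4 of 7 above 0 in males and 3 of 6 in females, and they held 3 of the 4 carriers below 0 in males. None of the carriers counted here passed the adjusted threshold, and the shares of all genes above 0 are those given for each sex. Slc25a24 in both sexes and Slc25a14 in females met the TPM minimum only through KO libraries. The carnitine and basic amino acid counts include Slc25a45, Slc25a47 and Slc25a48, which were placed there only as carrier-like.

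Other cell types also differed in the male comparison. All 10 macrophage markers had higher values in male KO (beside 79.9% of all genes), 8 of them at an unadjusted p under 0.05 (beside 17.7%). None passed the adjusted threshold. The macrophage marker sum was 119.6 to 174 TPM in KO against 47.3 to 92.4 in WT. The fibroblast marker sum was 253 to 263 TPM in KO and 123 to 210 in WT. The erythroid marker sum was 3194 to 6475 TPM in KO and 1599.8 to 3302 in WT. Their part in the carrier differences was not tested.

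In females, 0 of 38 carriers passed the adjusted threshold in limma, as did 0% of 12141 genes. At an unadjusted p under 0.05 were 7 carriers (18.4%, beside 17.1% of all genes), of which 2 were higher in KO (5.26%, beside 11.6%) and 5 were lower (13.2%, beside 5.45%). The log2 difference was above 0 for 16 of 38 carriers and for 62.7% of all genes, it was below 0 for 22 carriers and for 37.3% of all genes, and the medians were -0.06 over carriers and 0.10 over all genes. Slc25a14 and Slc25a24, both among the 16 above 0, had female WT means of 0.960 and 0.893 TPM. They met the 1 TPM minimum only through the KO libraries. The plot of differences by sex shows both comparisons side by side.

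**Figure D4:**
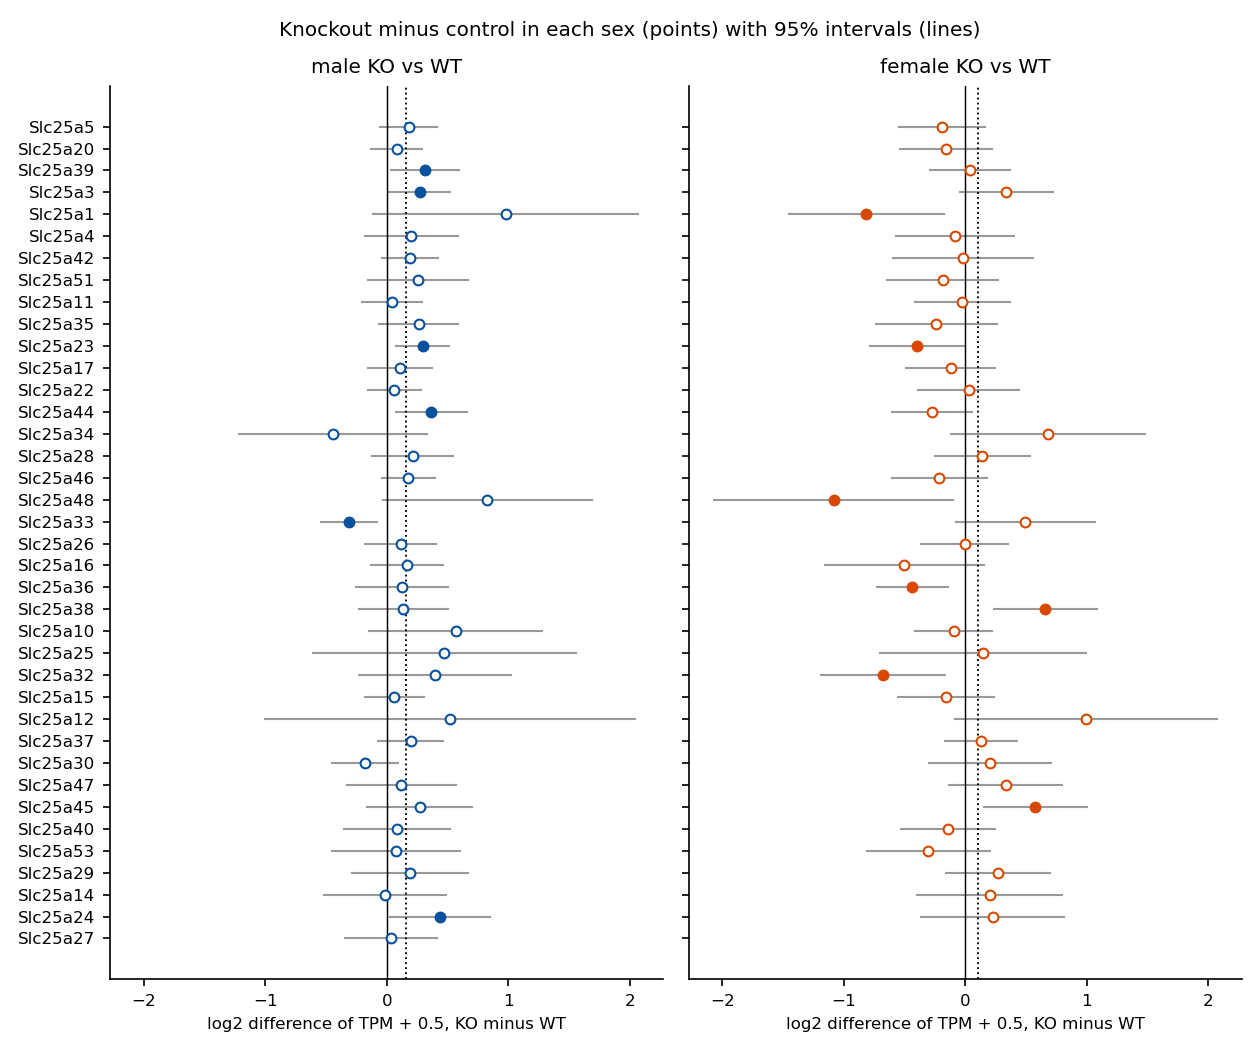
Log2 difference of TPM + 0.5, KO minus WT, of each carrier in males (left) and females (right), with 95% intervals as lines; filled points have an unadjusted p under 0.05, and the dotted line is the median of all genes tested. Of the points drawn (1 tested carrier is not shown), 34 of 38 lie right of 0 in males and 16 of 37 in females, and no point passes the adjusted threshold.

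Slc25a1 differed most in level among the abundant carriers in females: WT libraries were at 196, 197, 134 and 196 TPM and KO libraries at 77.2, 147, 139 and 66.3 TPM. Female KO 1 and 4 were the lowest of all 16 libraries, while KO 2 and 3 lay above female WT 3, and the log2 difference was -0.81 ± 0.28 (limma adjusted p = 0.240). Without the pair KO 1 and 4 it was -0.32. Within prefix 8b (3 WT libraries, 1 KO) it was -0.31, and within prefix 10 (1 of each) -1.34.

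Slc25a48, a carrier linked to mitochondrial choline, was at 8.89, 14.4, 10.8 and 14.4 TPM in female WT and 2.38, 8.97, 11.3 and 3.12 in female KO, with a log2 difference of -1.08 ± 0.44 (limma adjusted p = 0.268). Here too KO 1 and 4 were the lowest, KO 2 and 3 were within the WT range, and without the pair the difference was -0.23. Slc25a23 was at 70.2, 59.5, 58.4 and 68.0 TPM in WT and 42.4, 66.7, 46.1 and 42.0 in KO, the reverse of its order in males. KO 2 lay inside the WT range, and the difference was -0.40 ± 0.17 (adjusted p = 0.289), or -0.20 without KO 1 and 4.

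Slc25a36, also a carrier of pyrimidine nucleotides, was at 12.7, 12.3, 11.9 and 9.44 TPM in female WT and 7.54, 9.17, 7.92 and 8.97 in female KO. All KO libraries were below all WT libraries, 1 such carrier of 38 (2.63%, beside 3.19% of all genes), with a log2 difference of -0.44 ± 0.13 (limma adjusted p = 0.231). It was -0.41 without KO 1 and 4, where Slc25a36 was the single carrier still at an unadjusted p under 0.05, but -0.18 when only protein-coding transcripts were summed. Slc25a32, which brings FAD and folate into the matrix, was at 4.86, 9.7, 7.12 and 6.76 TPM in WT and 3.33, 5.26, 5.09 and 3.21 in KO. Female WT 1 lay inside the KO range, and the difference was -0.68 ± 0.23 (adjusted p = 0.232), or -0.39 without KO 1 and 4.

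The 2 carriers higher in female KO at an unadjusted p under 0.05 had means of 13.01 TPM or less. Slc25a38, a glycine carrier needed for heme synthesis, was at 9.56, 6.39, 8.98 and 7.14 TPM in WT and 13.7, 12.1, 9.68 and 16.6 in KO, with a log2 difference of 0.66 ± 0.19 (limma adjusted p = 0.231). Slc25a45, a carrier related to Slc25a20, was at 1.71, 0.99, 1.72 and 1.48 TPM in WT and 3.06, 2.13, 2.14 and 2.37 in KO, with a difference of 0.57 ± 0.19 (adjusted p = 0.232). Without KO 1 and 4 the differences were 0.43 for both. Both separated the groups without overlap, as 4.89% of all genes did in this direction. Slc25a38 had differences of 0.36 within prefix 8b and 0.50 within prefix 10.

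Female KO 1 and 4 were singled out after the data were seen, and they stood apart over all genes as well as over the family. The counts here describe that and are no test of it. For 8 of 38 carriers (21.1%, beside 10.5% of all genes) both lay below the other 6 female libraries: Slc25a1, Slc25a4, Slc25a16, Slc25a23, Slc25a32, Slc25a35, Slc25a44 and Slc25a48. For 5 carriers (13.2%, beside 22.1%) both lay above: Slc25a3, Slc25a24, Slc25a34, Slc25a38 and Slc25a45. Of these, Slc25a24 met the 1 TPM minimum in females only through the KO libraries. Without the pair, 1 carrier was at an unadjusted p under 0.05 in place of 7, with 4 KO libraries reduced to 2. The count was 4 without KO 1 alone, 4 without KO 4 alone and 12 without KO 2. Endothelial markers differed in females as well, all 8 higher in KO (beside 62.7% of all genes) and 7 at an unadjusted p under 0.05 (beside 11.6%). None passed the adjusted threshold. Their sums were 366 to 729 TPM against 219 to 338 in WT, and 2 of the 8 were at an unadjusted p under 0.05 without KO 1 and 4. Of 4 white adipocyte markers tested, 3 were below 0 in female KO (median -1.03, 1 at an unadjusted p under 0.05, and 0 without KO 1 and 4, where the median was -0.36). Lep, at 2.24 and 1.59 TPM, and Npr3, at 4.12 and 3.84 TPM, were lowest of the 16 libraries in KO 1 and 4. Nnat, at 22.2 and 18.9 TPM in KO 1 and 4, was not. Retn went the other way at 62.8 and 72.2 TPM, the latter its highest value in any library. The part of these cell types in the carrier values was not tested.

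**Figure D5:**
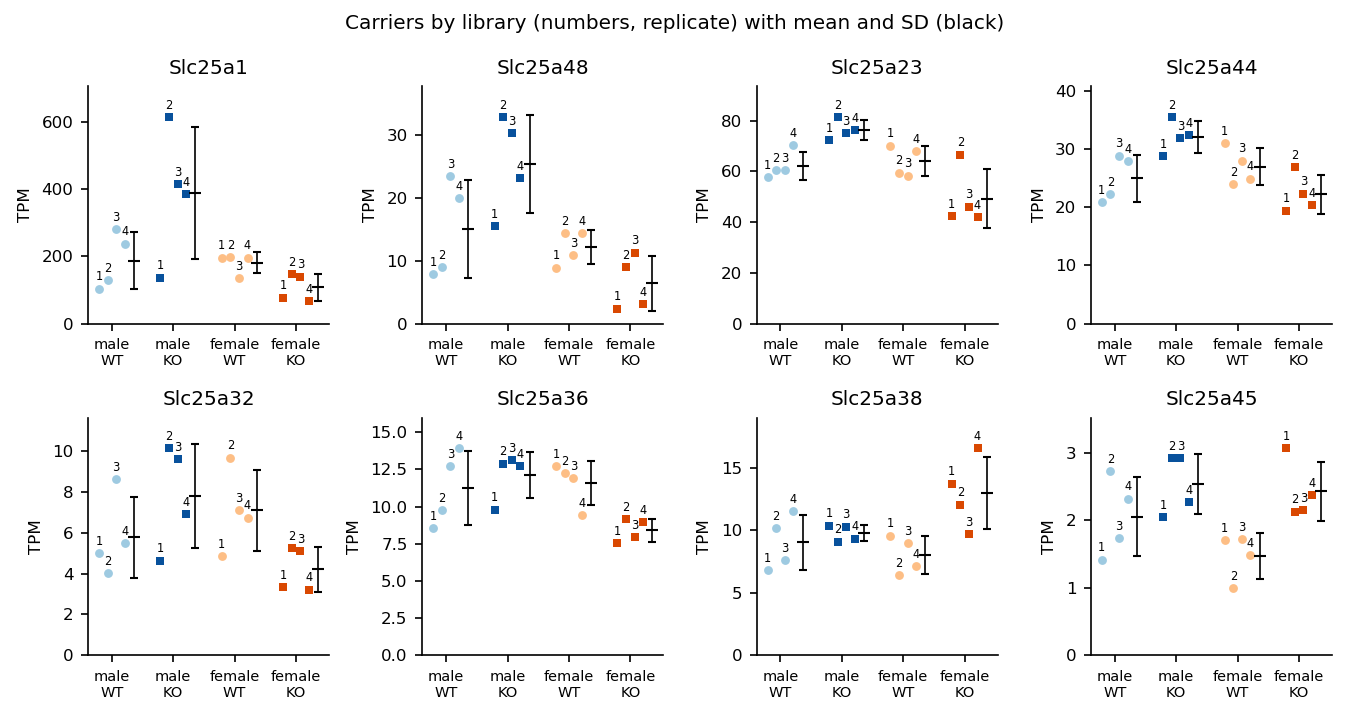
TPM of 8 carriers in each library (numbers give the replicate), with the group mean and SD in black (n = 4). Slc25a1, Slc25a48, Slc25a23 and Slc25a44 have male KO means above male WT and female KO means below female WT; female KO 1 and 4 are the lowest points of Slc25a1 and Slc25a48, and Slc25a38 and Slc25a45 have all female KO points above female WT.

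Whether the effect of the knockout differed between the sexes was tested as the KO minus WT difference in males minus that in females, in 1 fit of 16 libraries. Of 39 carriers 0 passed the adjusted threshold in limma, as did 0% of 12210 genes. At an unadjusted p under 0.05 were 7 carriers (17.9%, beside 14.2% of all genes), of which 6 differences were positive (15.4%, beside 11.7%) and 1 was negative (2.56%, beside 2.51%). The difference was above 0 for 28 of 39 carriers and for 57.1% of all genes, and below 0 for 11 carriers and for 42.9% of all genes. Of 38 carriers tested in both sexes, 22 had higher values in male KO and lower values in female KO, and 12 were higher in KO of both sexes. Another 4 were lower in male KO and higher in female KO, and 0 were lower in both. Shares of all genes with these joint patterns were not computed. As 79.9% of all genes were above 0 in males and 37.3% below 0 in females, the joint counts are not read as a trait of the family.

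The 4 smallest p belonged to Slc25a23 (difference of differences 0.69 ± 0.19, limma adjusted p = 0.216), Slc25a44 (0.64 ± 0.19, adjusted p = 0.216), Slc25a48 (1.91 ± 0.63, adjusted p = 0.222) and Slc25a1 (1.79 ± 0.60, adjusted p = 0.224). In males Slc25a48 was at 7.89, 9.0, 23.4 and 19.98 TPM in WT and 15.5, 32.9, 30.2 and 23.1 in KO, with overlap, and its own log2 difference was 0.83 ± 0.38. For Slc25a1 the male difference was 0.98 ± 0.48 (adjusted p = 0.300), with KO 2 to 4 above all WT libraries and KO 1 at 136 TPM among the lowest. Slc25a44 in females was at 31.0, 23.9, 28.0 and 24.9 TPM in WT and 19.4, 26.9, 22.3 and 20.3 in KO, with overlap and a difference of -0.28 ± 0.15 (adjusted p = 0.349), or -0.13 without KO 1 and 4.

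Without female KO 1 and 4, the sex differences were 0.50 for Slc25a23, 0.50 for Slc25a44, 1.06 for Slc25a48 and 1.30 for Slc25a1, and 2 carriers, Slc25a23 and Slc25a44, were at an unadjusted p under 0.05. The count was 12 without female KO 2 and 12 without female WT 4. Averaged over the sexes, 0 of 39 carriers passed the adjusted threshold for a KO effect (2.93% of all genes did), and 4 had an unadjusted p under 0.05 (10.3%, beside 24% of all genes). All 4 were higher in KO (beside 21.4% of all genes), namely Slc25a45, Slc25a3, Slc25a38 and Slc25a24, and 0 were lower (beside 2.58%). Slc25a24 met the 1 TPM minimum only through KO libraries, as its WT means were 0.965 TPM in males and 0.893 in females. Slc25a3 was at 0.30 ± 0.10 (limma adjusted p = 0.0857), and 1 carrier passed without male WT 2, 1 without female KO 2 and 2 without female KO 3. The mean KO effect was above 0 for 27 of 39 carriers (75.5% of all genes) and below 0 for 12 (24.5% of all genes), and under median-of-ratios scaling 14 carriers were above 0. That scaling gave 3 higher (Slc25a3, Slc25a38 and Slc25a45) and 3 lower (Slc25a5, Slc25a20 and Slc25a36) at an unadjusted p under 0.05.

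Between the sexes, irrespective of genotype, 1 of 39 carriers passed the adjusted threshold, 2.56% beside 4.48% of all genes. Slc25a10, the dicarboxylate carrier that exchanges malate or succinate for phosphate, was at 5.72, 8.16, 2.56 and 7.39 TPM in male WT, 7.24, 9.3, 6.8 and 10.8 in male KO, 10.3, 12.5, 10.1 and 13.6 in female WT and 10.1, 10.0, 12.9 and 10.2 in female KO. Its lowest female value, 10.0, lay under its highest male value, 10.8, and the female minus male difference was 0.67 ± 0.18 (limma adjusted p = 0.0485). It passed under 8 of 28 alternatives and was at 0.56 (adjusted p = 0.440) with prefix as a covariate. The call ended without any 1 of 12 of the 16 libraries (all but male WT 1, 2 and 3 and female KO 2), with an adjusted p of 0.110 without male KO 3.

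The carriers next in order were all lower in females at an unadjusted level: Slc25a48 (-1.14 ± 0.31, limma adjusted p = 0.0526), Slc25a23 (-0.31 ± 0.10, adjusted p = 0.0821) and Slc25a5 (-0.27 ± 0.09, adjusted p = 0.0968). At an unadjusted p under 0.05 were 10 carriers (25.6%, beside 21.3% of all genes). Of these, 8 were lower in females (20.5%, beside 18.2%) and 2 were higher (5.13%, beside 3.14%), namely Slc25a10 and Slc25a34. Over all tested carriers, 9 of 39 were above 0 (32.3% of all genes) and 30 below 0 (67.7% of all genes), and with prefix as a covariate 16 were above 0. Without female KO 2, 6 carriers passed the adjusted threshold. The skeletal muscle markers were lower in females for 12 of 12, median -2.47, none at an unadjusted p under 0.05. Erythroid markers were higher in females for 5 of 5 tested, all at an unadjusted p under 0.05 (median 0.73), and of 4 white adipocyte markers 1 was higher and 2 were lower past the adjusted threshold (median -1.14). Their part in the carrier values was not tested. Without the muscle-rich libraries 3 carriers passed the adjusted threshold, Slc25a1, Slc25a34 and Slc25a48, and Slc25a10 did not.

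Genes that work beside the carriers were counted by list. The list for citrate export and cytosolic acetyl-CoA (citrate synthase Cs, ATP-citrate lyase Acly, malic enzyme Me1 and isocitrate dehydrogenase Idh1) had values higher in male KO for 4 of 4 and lower in female KO for 4 of 4. None passed the adjusted threshold, and 2 in males and 3 in females were at an unadjusted p under 0.05 (1 in females without KO 1 and 4, with 4 of 4 still below 0). Acly was at 293, 555, 255 and 521 TPM in female WT and at 31.3, 187, 261 and 28.0 in female KO, with KO 1 and 4 the lowest as for Slc25a1. The enzymes of the malate-aspartate and glycerol phosphate shuttles had medians of 0.54 in males and -0.47 in females, 6 of 6 and 2 of 6 above 0, with 2 higher in males and 3 lower in females at an unadjusted p under 0.05. Without KO 1 and 4 the female median was -0.21, with 2 lower at that level.

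The remaining lists had 0 genes past the adjusted threshold in either sex. ATP synthase subunits had medians of 0.04 in males (8 of 15 above 0) and 0.29 in females (12 of 15), and carrier import proteins 0.08 (7 of 10) and 0.16 (8 of 10). The 3 outer membrane channels had medians of 0.17 and -0.19, the 5 carnitine shuttle enzymes 0.15 and 0.07, the 6 tested calcium uniporter subunits 0.21 and -0.06, and the 9 genes of heme and iron-sulfur cluster synthesis 0.20 and -0.19. Of the pyruvate carrier, Mpc1 was at 0.32 ± 0.17 in males and -0.41 ± 0.17 in females (limma adjusted p = 0.330 and 0.283), and Mpc2 at 0.14 and 0.06. Without KO 1 and 4 the female medians were 0.05 for the outer membrane channels, -0.08 for the carnitine shuttle enzymes and 0.01 for heme and iron-sulfur cluster synthesis, each of the opposite sign, and 0.18 for ATP synthase and 0.09 for carrier import. Mpc1 was then at -0.24.

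Among family proteins with other symbols, Ucp1 was at 2353 to 4423 TPM, above the sum of the 47 SLC25 carriers in each of the 16 libraries, with KO minus WT differences of 0.05 ± 0.12 in males and 0.23 ± 0.21 in females (-0.04 without KO 1 and 4). Ucp2, which exchanges dicarboxylic metabolites for phosphate and is abundant in macrophages, was at 10.6, 24.9, 16.6 and 19.6 TPM in male WT and 31.3, 50.6, 56.8 and 47.5 in male KO, without overlap. Its male difference was 1.38 ± 0.27 (limma adjusted p = 0.136) and the mean KO effect over both sexes was 0.90 ± 0.17 (adjusted p = 0.0227). In females Ucp2 was at 21.1, 18.1, 21.2 and 28.3 TPM in WT and 38.0, 25.2, 24.9 and 30.4 in KO, with overlap. Without KO 1 and 4 the female difference was 0.19. The macrophage marker sums given above separated the male groups in the same direction, and their part in Ucp2 was not tested.

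Promoter sequence was searched for 36 of the 47 carriers, those with an entry in the RefSeq promoter table of GRCm38.p6 (250 bases before to 50 after the start). Of 11 motifs searched as exact letters on both strands, the E-box CACGTG matched most carriers, 7 of 36 (19.4%, beside 8.09% of all 27025 genes): Slc25a1, Slc25a13, Slc25a14, Slc25a15, Slc25a31, Slc25a33 and Slc25a36. The 250 bases before the start of Slc25a1 (chr16:17928220-17928469) and Slc25a36 (chr9:97111042-97111291), both on the minus strand, are printed 5′ to 3′ with the E-box in capitals, since these are the carriers with an E-box that were at an unadjusted p under 0.05 in females.
Slc25a1 promoter: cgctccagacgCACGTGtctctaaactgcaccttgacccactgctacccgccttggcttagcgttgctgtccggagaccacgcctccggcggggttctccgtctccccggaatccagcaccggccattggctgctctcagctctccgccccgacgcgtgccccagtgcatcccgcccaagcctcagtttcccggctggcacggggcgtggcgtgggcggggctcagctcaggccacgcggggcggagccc
Slc25a36 promoter: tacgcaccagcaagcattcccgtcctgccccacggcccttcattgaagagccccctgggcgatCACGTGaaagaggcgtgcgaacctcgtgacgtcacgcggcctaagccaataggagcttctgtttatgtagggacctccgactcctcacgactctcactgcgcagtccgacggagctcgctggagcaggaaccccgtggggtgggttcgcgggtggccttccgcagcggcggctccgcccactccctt

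The motif match in Slc25a1 started 239 bases and that in Slc25a36 187 bases before the start. Of the other motifs, GGGGCGGGG (SP1) matched 6 carriers (16.7%, beside 12.9%), TGACGTCA (CRE) 2 (5.56%, beside 2.03%), the NRF1 motif with 1 free base 2 (beside 5.19%) and TATAAA 2 (beside 15.7%). AAGGTCA matched 1 (Slc25a34, 2.78%, beside 5.38%), ACTTCCGG (GABPA) 1 (Slc25a20, beside 4.31%) and TCACNCCAC 1 (Slc25a18, beside 1.44%), and TCAAGGTCA, the NRF1 motif without a free base and the YY1 motif matched 0. TCAAGGTCA holds AAGGTCA, and the NRF1 motif is a case of its form with a free base. These are matches of letters in a fixed window.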

How the data were processed

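Total RNA from BAT was made into stranded mRNA libraries, and the authors quantified transcripts with kallisto 0.46.2. The deposited values are TPM per transcript, which the authors scaled to 1000000 per library. The processing notes name GRCm39, and the annotation release is not given in the sources used here. Transcript IDs were matched without version to GENCODE mouse M21 (135051 matched, 2387 did not) and summed per symbol. KO and WT were compared with limma 3.58.1 in R 4.3.3 on log2(TPM + 0.5), for genes with a mean of at least 1 TPM, with an intensity trend and Benjamini-Hochberg adjustment over all genes tested (threshold 0.05). Fold values of low genes are understated on this scale. The fits were tested on simulated data. The members, role groups and lists were chosen with earlier results of these data known. Full values are given for the 10 highest carriers, the 6 with the smallest p in each sex, the 4 in the interaction and the 4 between sexes, and any past the threshold, except 1 carrier that is not reported here and enters only counts, sums and medians over the family. In addition, 1 enzyme was left out of the citrate list. Alternatives were other pseudocounts, minimums and scalings, protein-coding transcripts only, no trend, a replicate block, library prefix and leaving out libraries. Leaving out in 2 forms, without muscle-rich libraries and without female KO 1 and 4, was chosen after the data were seen, as were other pseudocounts for Gdf15 (exact permutation test).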

Additional observations from a re-analysis of the deposited data

Results flagged for a closer look

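In 72 groups of 4 libraries (18 named carriers in 4 groups), 8 held a library whose gap to its nearest neighbour passed Dixon's critical value as a share of the group's range. Chance gives about 1 in 20 independent groups. These groups share libraries and so are not independent, and the count is no test of an excess. In female KO, library 2 was the high one for Slc25a5 (306 TPM, the others 243 to 245), Slc25a11 (102, others 75.0 to 76.4) and Slc25a23 (66.7, others 42.0 to 46.1). Female KO 3 was low for Slc25a39 (177 TPM, others 229 to 239) and high for Slc25a10 (12.9, others 10.0 to 10.2), and it was rich in muscle markers. Female WT 3 was low for Slc25a1 (134 TPM, others 196 to 197). Male KO 1, the library richest in muscle markers, was low for Slc25a51 (103 TPM, others 137 to 143) and Slc25a36 (9.79, others 12.7 to 13.1).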

How the results depend on the processing

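Among 2370 values of single carriers recomputed under the alternatives, 2219 kept their direction and their side of the adjusted threshold, 113 uncalled ones changed direction, 18 newly passed, 20 no longer passed and 0 called ones reversed. In males, the 7 carriers at an unadjusted p under 0.05 became 2 under median-of-ratios scaling (both lower, 1 of them, Slc25a30, not among the 7) and 1 with prefix as a covariate (Slc25a1, not among the 7). They became 2 without the muscle-rich libraries (Slc25a39 of the 7, and Slc25a1) and 2 to 10 without single libraries. With nuclear genes rescaled, 3 carriers were higher (Slc25a3, Slc25a24 and Slc25a39) and 2 lower at that level. Median-of-ratios scaling moved the male median from 0.19 to 0.0189. In females, the 7 became 1 without KO 1 and 4 and 4 to 12 without single libraries. With prefix as a covariate 1 carrier was higher and 5 were lower at that level, with only Slc25a23, Slc25a32 and Slc25a36 from the 7. Median-of-ratios scaling gave 2 higher and 7 lower and a female median of -0.163. For the sex difference of the KO effect, the 7 became 11 under median-of-ratios scaling, nuclear genes rescaled or prefix as a covariate, 12 with protein-coding transcripts only, 2 without female KO 1 and 4 and 7 to 12 without single libraries. For the mean KO effect, the 4 became 2 at a minimum of 5 TPM, 7 with protein-coding transcripts only and 1 without female KO 1 and 4. Its median was -0.0825 under median-of-ratios scaling, and 0 to 2 carriers passed the adjusted threshold without single libraries.

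For the sex contrast, the 1 carrier past the adjusted threshold became 0 with a pseudocount of 0.1, no TPM minimum, nuclear genes rescaled, no trend, prefix as a covariate or without female KO 1 and 4. It became 2 at a minimum of 5 TPM (Slc25a10 and Slc25a48), 2 with protein-coding transcripts only (Slc25a28 and Slc25a48, without Slc25a10), 3 without the muscle-rich libraries (without Slc25a10) and 0 to 6 without single libraries, and the 10 at an unadjusted p became 6 with prefix as a covariate. The cause of these shifts was not tested. Same-numbered WT and KO samples correlated at -0.08 to 0.35 in males and -0.12 to 0.15 in females. Differently numbered ones correlated at -0.30 to 0.28 in males and -0.31 to 0.44 in females. Some same-numbered samples also shared a library prefix, and the number was not treated as a pairing in the main fits. With replicate number as a block, the counts at an unadjusted p were 10 in males, 6 in females, 8 for the sex difference, 3 for the mean KO effect and 9 for the sex contrast, where 2 carriers passed the adjusted threshold. TPM keep no read depth, so counting error is unknown, and 4 libraries a group limit the precision.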
